A study of Homo sapiens with 8 samples.

Results

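The RWD domain genes and the GCN2 arm comprised 6 of the 14884 genes measured in this series: RWDD4, RWDD1, RWDD2B, IMPACT, EIF2AK4 and GCN1. They were chosen by symbol from a list of 7 names, of which GCN1L1 is an older name of GCN1, and each was read by 1 probe set, so the rule of taking the probe set with the highest mean had nothing to decide. RNA was measured on 8 Affymetrix arrays, 1 for each clonal isolate of PC-3, a line of human prostate cancer cells that grows without androgen. The RWDD4 group held 4 clones, numbered 17, 24, 5 and 6, that carried a p-Lenti vector with the RWDD4 gene, and the control group held 4 clones, numbered 2, 3, 4 and 5, that carried the same vector without an insert. All 8 clones had been selected with the antibiotic blasticidin and received no other treatment. Each clone descends from 1 selected cell, the labels do not say whether the clones of a group came from separate infections, and the p-values measure the spread between clones. The design asks what differs in cells that overexpress RWDD4.

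The RWD domain is a small protein-binding fold named after RING finger proteins, WD-repeat proteins and DEAD-like helicases, in which it is found. The best known carrier is GCN2, the kinase encoded by EIF2AK4, whose RWD domain binds the large ribosome-associated protein GCN1. When amino acids run short or ribosomes stall, GCN1 helps to activate GCN2, which phosphorylates the translation factor eIF2. General protein synthesis then falls, while translation of the transcription factor ATF4 rises. IMPACT also carries an RWD domain and binds GCN1, and so keeps GCN2 from it. RWDD1 binds and stabilises DRG2, a GTPase associated with ribosomes. GCN1 has no RWD domain and belongs to the group as its binding partner.

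Promoters of 5 of the 6 genes were available from RefSeq (GRCh38.p14), as 250 bases before and 50 after the annotated start. Shown are those of 3 genes that were higher in the RWDD4 clones, and that of GCN1, which did not pass the test. They lie at chr6:116571254-116571553 on the plus strand for RWDD1, chr18:24426420-24426719 on the plus strand for IMPACT, chr15:39933865-39934164 on the plus strand for EIF2AK4 and chr12:120194666-120194965 on the minus strand for GCN1. Capitals mark matches, on either strand, to the motifs named after the sequences.
RWDD1: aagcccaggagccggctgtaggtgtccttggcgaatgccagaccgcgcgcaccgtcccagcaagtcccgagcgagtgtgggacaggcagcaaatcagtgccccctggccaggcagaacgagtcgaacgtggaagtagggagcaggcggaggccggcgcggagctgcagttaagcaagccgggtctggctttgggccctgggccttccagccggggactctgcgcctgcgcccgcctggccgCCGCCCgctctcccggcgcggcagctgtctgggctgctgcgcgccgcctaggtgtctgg
IMPACT: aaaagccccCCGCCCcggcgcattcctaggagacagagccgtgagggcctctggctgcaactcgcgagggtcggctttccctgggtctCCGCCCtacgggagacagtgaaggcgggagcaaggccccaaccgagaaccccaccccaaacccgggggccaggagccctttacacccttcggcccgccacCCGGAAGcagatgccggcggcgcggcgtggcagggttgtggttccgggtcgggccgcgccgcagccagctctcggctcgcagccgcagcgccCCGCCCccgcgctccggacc
EIF2AK4: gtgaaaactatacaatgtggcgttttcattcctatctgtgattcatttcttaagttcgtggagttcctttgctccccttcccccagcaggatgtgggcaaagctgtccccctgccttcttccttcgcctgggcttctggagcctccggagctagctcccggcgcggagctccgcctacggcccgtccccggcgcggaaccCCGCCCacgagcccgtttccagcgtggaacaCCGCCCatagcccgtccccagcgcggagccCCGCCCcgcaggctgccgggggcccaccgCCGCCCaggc
GCN1: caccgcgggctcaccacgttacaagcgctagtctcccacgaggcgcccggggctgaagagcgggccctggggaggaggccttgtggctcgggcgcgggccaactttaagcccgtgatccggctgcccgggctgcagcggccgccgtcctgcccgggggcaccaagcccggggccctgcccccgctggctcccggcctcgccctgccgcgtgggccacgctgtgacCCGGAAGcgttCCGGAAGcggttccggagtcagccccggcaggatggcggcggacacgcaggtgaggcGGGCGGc

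All of these windows were rich in G and C, with 70.7% in RWDD1, 73.0% in IMPACT, 66.0% in EIF2AK4 and 75.7% in GCN1, against a median of 58.3% over 27305 RefSeq promoters of the same length. Of 6 motifs searched on both strands, GGGCGG, the GC box bound by SP and KLF factors, was found 4 times in EIF2AK4, 3 times in IMPACT and once each in RWDD1 and GCN1. That motif was held by 44.6% of all promoters. The ETS motif CCGGAAG was found once in IMPACT and 2 times in GCN1, and was held by 10.7% of all promoters. The window of RWDD4 held CCAAT, as 35.7% of all promoters did, and none of the other motifs. The motif TGATGNAAN, after the element to which ATF4 binds with its partners, was held by 3.67% of all promoters, and its letters were in none of the 5 windows. Nor were the letters of TGACGTCA (CRE, 1.98% of all promoters) or AAGATGGCG (YY1, 1.85%). No match overlapped another in these 5 windows.

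The values are log2 expression values, which compare 1 gene between arrays and do not set one gene's level against another's. The groups stood apart in their array medians. The RWDD4 clones had a median over all genes of 6.0884 to 6.1257, and the control clones one of 5.8917 to 6.026. Over all probe sets the RWDD4 clones had the lower medians, at 4.8878 to 4.8990, against 4.9198 to 4.9644 in the control clones. In all, 46.7% of the 14884 genes changed at an adjusted p under 0.05, 25.1% higher and 21.6% lower in the RWDD4 clones. This is the background set beside the counts given here. A fit of only the 10557 genes with a mean above the median of all probe sets called 3537 higher and 2941 lower. Both are larger shares than over all genes, and all 6 genes were in that set. Control clone 2 stood apart from the other controls: on the leading axis of variation within the groups, which held 38.9% of that variation, the RWDD4 clones lay at -35.9 to -19.7, control clones 3, 4 and 5 at 12.21 to 24.44 and control clone 2 at 58.36. Of the epithelial markers of the labelled cell type 3 of 4 were measured, and the keratin KRT18 averaged 10.61 ± 0.17 in the RWDD4 clones and 11.01 ± 0.14 in the control clones (SD, n = 4 each). The stromal genes LUM and DCN averaged 3.07 and 2.70 in the RWDD4 clones and 3.08 and 2.81 in the control clones, under the median of all probe sets on every array. The vessel gene VWF averaged 4.53 in the RWDD4 clones and 4.84 in the control clones. PECAM1 averaged 5.44 and 5.57, above that median on every array. The mean of the 4 stromal and vessel markers measured, of 5 listed, was 3.88 to 3.99 over the RWDD4 clones and 4.0 to 4.2 over the control clones, and CD14, the 1 blood cell marker measured, of 5 listed, lay at 3.93 to 4.2 in the RWDD4 clones, against 4.32 to 4.83 in the control clones. Their part in the results was not tested.

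Of the 6 genes, 5 were higher in the RWDD4 clones by limma's test at an adjusted p under 0.05, none was lower, and 1 did not pass. The background share of genes called higher was 25.1%. In the same 5 genes every RWDD4 clone lay above every control clone, a pattern seen for 23.7% of all genes, and for 44.8% in either direction. All 5 rose at least 2-fold, as 9.74% of all genes did. In each of these counts 1 of the 5 was RWDD4 itself, the gene that the vector carried, so its rise was part of the design. The median difference was 1.37 over the 6 genes and 1.32 without RWDD4, against -0.08 over all genes.

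RWDD4 (Entrez gene 201965) lies on chromosome 4. Its log2 value was 10.42, 10.45, 10.46 and 9.87 in RWDD4 clones 17, 24, 5 and 6, against 6.64, 7.58, 7.21 and 8.0 in control clones 2, 3, 4 and 5. The lowest RWDD4 clone was 1.87 above the highest control clone. Set against the mean of the controls, the rise was 8.34-fold, 8.51-fold and 8.56-fold in clones 17, 24 and 5 and 5.7-fold in clone 6. The group difference was 2.94 (SE 0.25; 95% interval 2.38 to 3.5; limma adjusted p = 5.98e-05). Transcripts of the vector and of the cell's own gene were not told apart here. The control clones differed among themselves by up to 1.36 on the log2 scale, between clones 2 and 5.

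**Figure D1:**
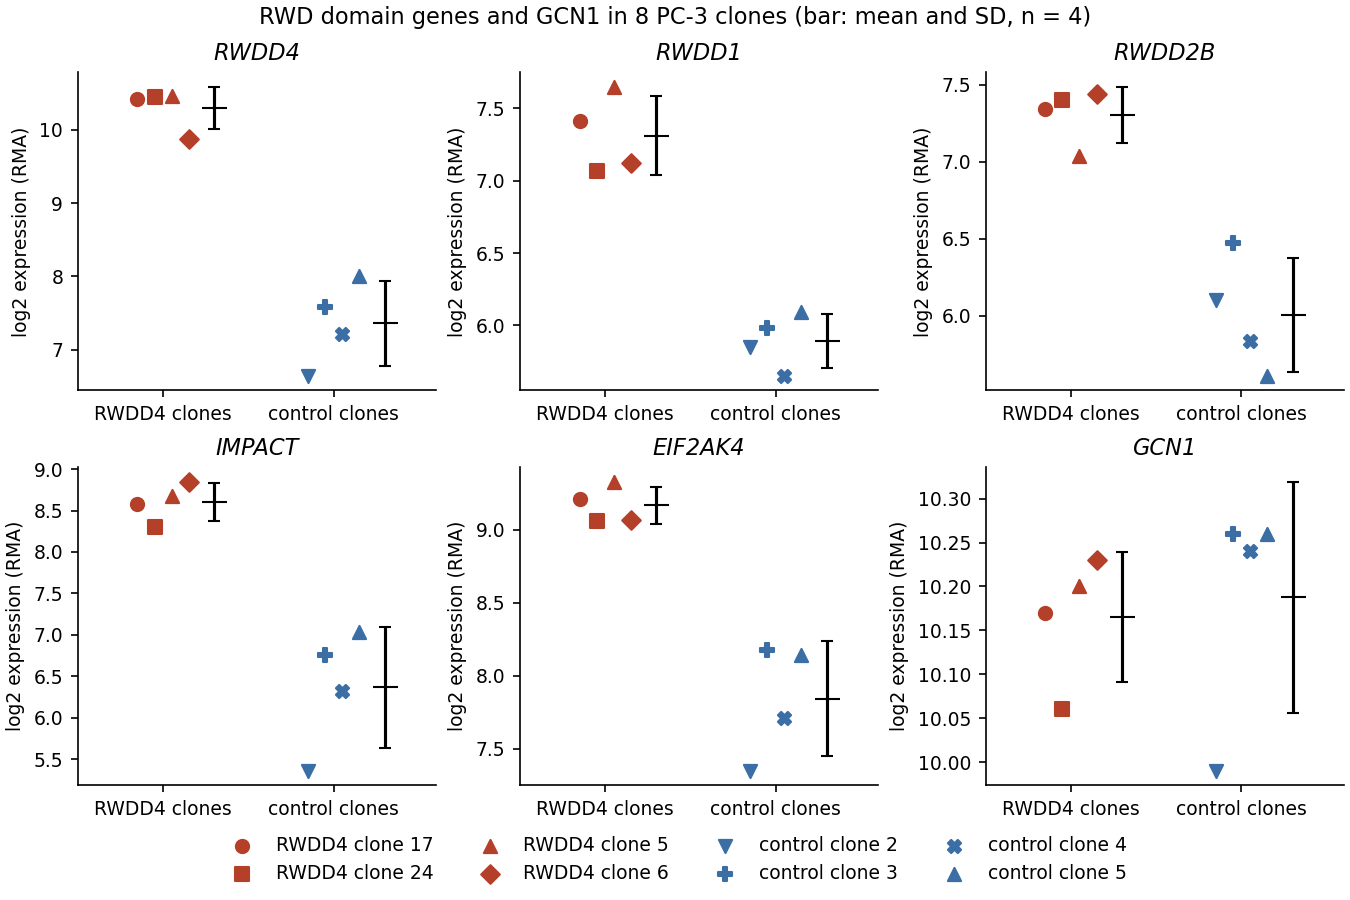
Log2 expression (vertical axes, scaled separately for each gene) of the 6 genes in RWDD4 clones (red) and control clones (blue), 1 point per clone, with the mean and SD of 4 clones as black bars. In 5 genes the groups do not overlap, and in GCN1, whose axis spans a far smaller range, they do.

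EIF2AK4 (Entrez gene 440275, chromosome 15), which encodes the kinase GCN2, was higher in all 4 RWDD4 clones. Its values were 9.21, 9.06, 9.33 and 9.07 in RWDD4 clones 17, 24, 5 and 6 and 7.35, 8.18, 7.71 and 8.14 in control clones 2, 3, 4 and 5. The RWDD4 clones lay within 0.26 of each other, while the controls covered 0.83. The difference was 1.32 (SE 0.17; 95% interval 0.94 to 1.70), or 2.50-fold, with a limma adjusted p of 0.000202. Without control clone 2, the lowest, it was 1.16.

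IMPACT (Entrez gene 55364, chromosome 18), the inhibitor that competes with GCN2 for GCN1, had the largest difference of the group after RWDD4 and ranked 39 among all genes by difference. Its values were 8.58, 8.30, 8.68 and 8.85 in RWDD4 clones 17, 24, 5 and 6, against 5.36, 6.76, 6.32 and 7.03 in control clones 2, 3, 4 and 5. The control clones covered a range of 1.66, the widest of the 6 genes, and clone 2 lay lowest. The difference was 2.23 (SE 0.30; 95% interval 1.58 to 2.89), or 4.71-fold, with a limma adjusted p of 0.00023. Without control clone 2 it was 1.90 with an SE of 0.17, and the call held.

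GCN1 (Entrez gene 10985, chromosome 12), the ribosome-associated activator of GCN2, did not pass the test. It had 10.17, 10.06, 10.20 and 10.23 in RWDD4 clones 17, 24, 5 and 6 and 9.99, 10.26, 10.24 and 10.26 in control clones 2, 3, 4 and 5. The 2 groups overlapped through control clone 2, which lay below every RWDD4 clone, while control clones 3, 4 and 5 lay narrowly above every RWDD4 clone. The difference was -0.02 (SE 0.09; limma adjusted p = 0.861), with a 95% interval of -0.23 to 0.19, which leaves room for a small change in either direction. In a fit that took out the trend of each array over the genes' genomic span the difference was -0.24 and passed, with a limma adjusted p of 0.0358.

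RWDD1 (Entrez gene 51389, chromosome 6), the partner of DRG2, was at 7.41, 7.07, 7.65 and 7.12 in RWDD4 clones 17, 24, 5 and 6, against 5.85, 5.98, 5.65 and 6.09 in control clones 2, 3, 4 and 5. The controls lay close together, and clone 2 was not the lowest of them. The difference was 1.42 (SE 0.15; 95% interval 1.09 to 1.74), or 2.67-fold, with a limma adjusted p of 7.97e-05.

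RWDD2B (Entrez gene 10069, chromosome 21), a little studied member of the RWD family, had 7.34, 7.40, 7.04 and 7.44 in RWDD4 clones 17, 24, 5 and 6 and 6.10, 6.47, 5.84 and 5.61 in control clones 2, 3, 4 and 5. Here clone 5 was the lowest control, whereas it was the highest control in RWDD4, IMPACT and RWDD1. The gap between the groups, 0.57, was the smallest among the 5 genes that passed. The difference was 1.30 (SE 0.17; 95% interval 0.92 to 1.68), or 2.46-fold, with a limma adjusted p of 0.000218.

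Each of the 5 genes reached an exact permutation p of 0.0286, two-sided, the smallest that 70 relabellings of 4 against 4 clones allow. Groups that do not overlap always give this value, so it restates the count of such genes given above. In either direction 44.8% of all genes had such groups, and the rise of RWDD4 was part of the design. GCN1 had an exact permutation p of 0.714.

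**Figure D2:**
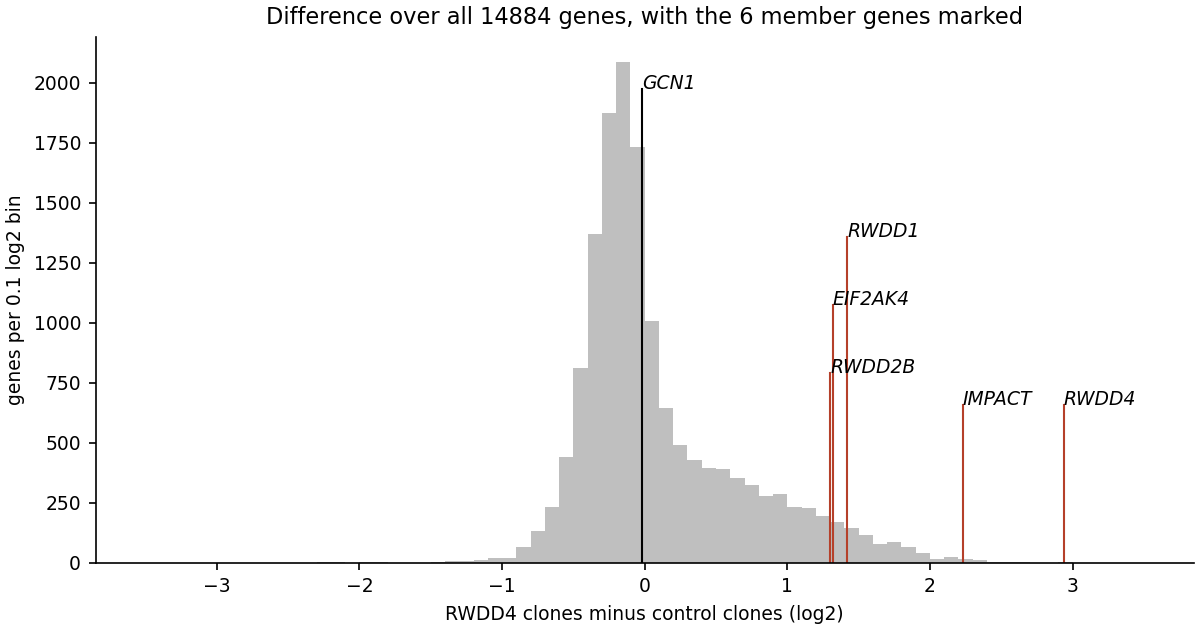
Number of genes (vertical axis) by log2 difference, RWDD4 clones minus control clones (horizontal axis), over all 14884 genes, with lines at the 6 genes, red where they were called higher. GCN1 lies in the bulk of the genes at -0.02, and the other 5 lie between 1.30 and 2.94 in the upper tail, where RWDD4 has the largest difference of all genes.

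Clone by clone, the order of the RWDD4 clones was not shared by the genes. Clone 5 was highest in RWDD4, RWDD1 and EIF2AK4 but lowest in RWDD2B. Clone 6, which had the least RWDD4, had the most IMPACT and RWDD2B. Clone 24 was lowest in RWDD1, IMPACT, EIF2AK4 and GCN1. Averaged over RWDD1, RWDD2B, IMPACT and EIF2AK4, the clones stood 1.61, 1.43, 1.65 and 1.59 above the control mean in clones 17, 24, 5 and 6, and the controls at -0.36, 0.32, -0.15 and 0.19 in clones 2, 3, 4 and 5. Among the controls, RWDD4 and IMPACT had the same order of clones, with 5 highest, then 3, 4 and 2. With 4 clones per group, no relation between the level of RWDD4 and that of another gene was tested.

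**Figure D3:**
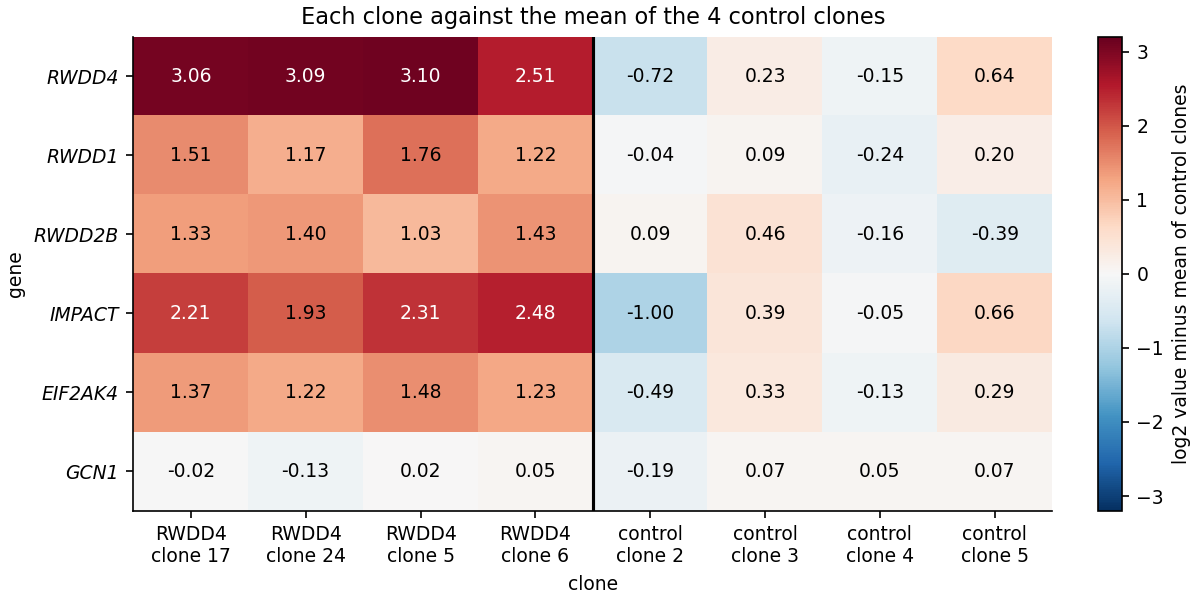
Log2 value of each of the 6 genes (rows) in each clone (columns, RWDD4 clones left of the line, control clones right) minus the mean of the 4 control clones, in colour and figures. The RWDD4 clones are at 1.03 or more in 5 genes and between -0.13 and 0.05 in GCN1, and control clone 2 is at -1.0 in IMPACT.

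The genes were also set against their binding partners within each clone, as log2 ratios relative to the control mean, for 4 pairs chosen after the values were seen. The RWDD4 clones had a ratio of EIF2AK4 to GCN1 of 1.18 to 1.47, against -0.30 to 0.26 in control clones, so the kinase and its activator changed unequally. The ratio of IMPACT to EIF2AK4, inhibitor over kinase, was 0.72 to 1.25 in RWDD4 clones, against -0.51 to 0.36 in control clones. The ratio of RWDD1 to DRG2 was 1.59 to 2.04 in RWDD4 clones, against -0.18 to 0.23 in control clones. ZC3H15, which stabilises the GTPase DRG1 as RWDD1 does DRG2, gave a ratio to DRG1 of 0.78 to 1.13 in RWDD4 clones, against -0.08 to 0.05 in control clones. All 4 ratios were higher in 4 of 4 RWDD4 clones than in any control. For RWDD1 over DRG2 this was bound to hold, as every RWDD4 clone lay above every control in RWDD1 and below every control in DRG2. The exact permutation p was 0.0286, the smallest possible, and 0.0286 after Benjamini-Hochberg adjustment over the 4 pairs. Because the pairs were chosen with the values known, these p-values are no test of the ratios. How often the ratios of other gene pairs separate the groups was not examined.

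Beyond the 6 genes, 43 genes around the pathway were listed and 21 of them were measured here. Of these 21, 12 rose (57.1%, against 25.1% of all genes), 6 fell (28.6%, against 21.6%) and 3 did not pass, with a median difference of 0.65 against -0.08 over all genes. All 21 had a mean above the median of all probe sets. Among the 10557 such genes, 3537 rose and 2941 fell, so the share that fell was near that of this set. None of the 5 listed subunits of the eIF2 phosphatase, and none of the listed subunits of eIF2 and eIF2B, was among the genes analysed here.

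Of 3 further RWD family genes measured, 2 rose and 1 fell, where 25.1% of all genes rose and 21.6% fell. RWDD2A rose to 5.45 ± 0.20 in the RWDD4 clones, against 4.66 ± 0.17 in the control clones (SD, n = 4 each), a difference of 0.79 (SE 0.12). RNF14, an RWD-containing ubiquitin ligase that acts with GCN1 on stalled ribosomes, rose by 1.27 (SE 0.21). RNF25, another RWD-containing ligase of the same response, fell by 0.27 (SE 0.10; limma adjusted p = 0.0472). That fall passed in 8 of 18 other fits and did not pass with control clone 2, 3 or 5 or RWDD4 clone 17, 5 or 6 left out.

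Among 8 measured partners of GCN1 and of RWDD1 at the ribosome, 4 rose, 3 fell and 1 did not pass. Over all genes 25.1% rose and 21.6% fell, and whether this list departs from those shares was not tested. ZC3H15 rose by 1.48 (SE 0.15), MAP3K20, a kinase that senses collided ribosomes, by 1.15 (SE 0.16), GIGYF2, a repressor of translation initiation, by 0.68 (SE 0.11), and DRG1 by 0.56 (SE 0.13). DRG2 fell by 0.33 (SE 0.10), and so did ZNF598, a ubiquitin ligase for collided ribosomes, by 0.37 (SE 0.09), and EDF1, which also binds collided ribosomes, by 0.30 (SE 0.10). EIF4E2, the cap-binding partner of GIGYF2, lay at -0.01 (SE 0.09). DRG2 did not pass without RWDD4 clone 24 (limma adjusted p = 0.0536), and EDF1 did not pass without RWDD4 clone 5 or 6, without control clone 2 or 3, or with the span trend removed.

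The other eIF2 kinases measured, 3 of 3, rose, as did 25.1% of all genes. EIF2AK1, the heme-regulated kinase, rose to 9.66 ± 0.08 in the RWDD4 clones, against 8.93 ± 0.43 in the control clones, and EIF2AK3, the kinase PERK of the endoplasmic reticulum, to 6.74 ± 0.26, against 6.02 ± 0.33 in the control clones (SD, n = 4 each). Both differences were 0.72 (SE 0.18 each), which is smaller than the 1.32 of EIF2AK4, though the difference between the genes was not tested. EIF2AK2, the double-stranded RNA sensor PKR, rose by 0.82 (SE 0.26). It did not pass without RWDD4 clone 24, with all probe sets tested or with the span trend removed, where its adjusted p reached 0.0693 at most over 18 other fits. Of the factors that work with eIF2, CDC123, needed to assemble eIF2, rose by 1.23 (SE 0.17) and EIF5, which triggers its GTP hydrolysis, by 1.29 (SE 0.15).

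Downstream, ATF4 lay at 9.20 ± 0.14 in the RWDD4 clones and 9.24 ± 0.09 in the control clones (SD, n = 4 each), a difference of -0.04 (SE 0.10). ATF4 is controlled mainly at translation, which these arrays do not measure. Of its 4 targets measured, ASNS, which makes asparagine, rose by 0.65 (SE 0.14), and TRIB3 and SESN2, both induced by stress, fell by 0.69 (SE 0.13) and 0.70 (SE 0.15). DDIT3 lay at -0.29 (SE 0.25) and did not pass. Over 18 other fits DDIT3 ran from -0.45 to 0 without passing, and it was at 0 with control clone 3 left out.

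**Figure D4:**
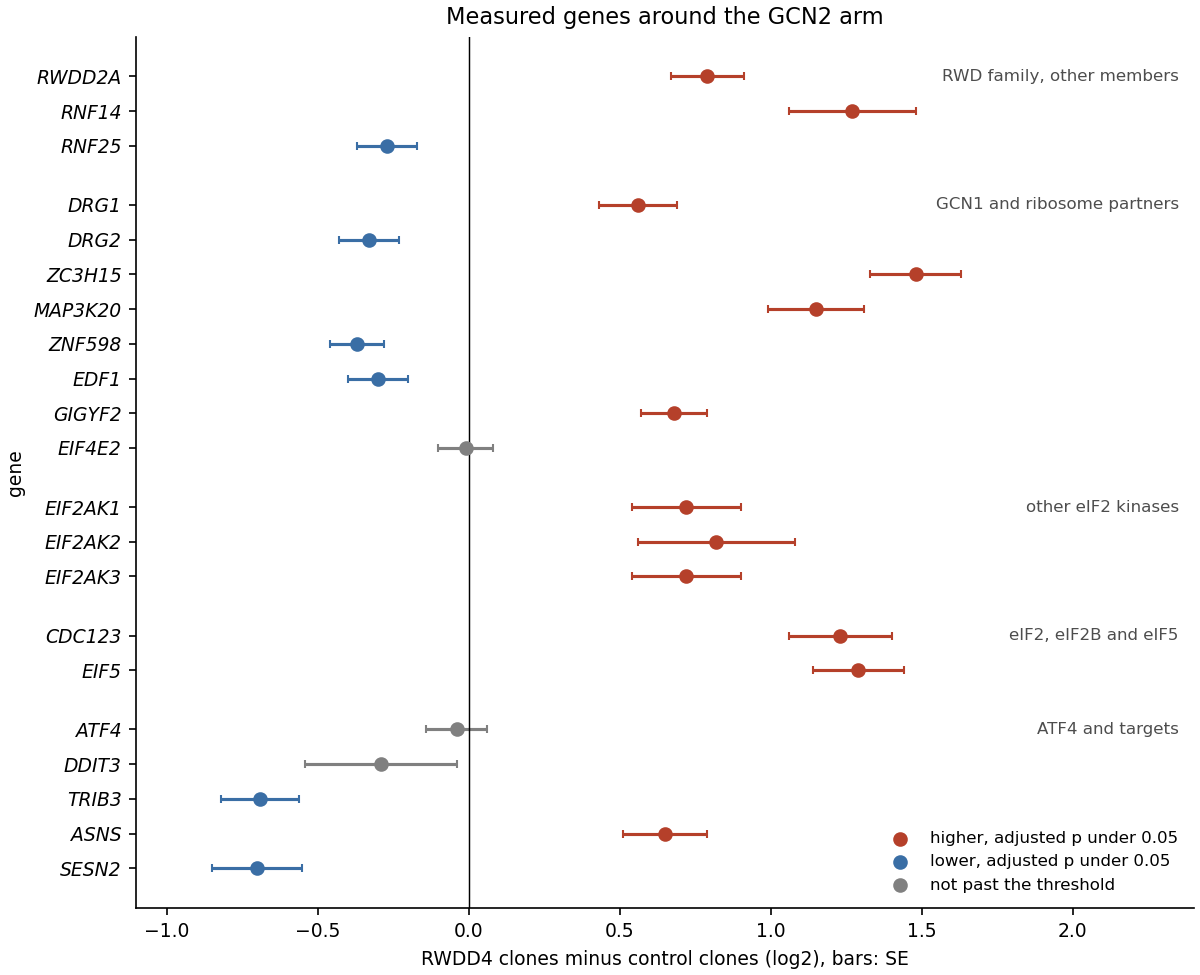
Log2 difference, RWDD4 clones minus control clones, with its SE (horizontal axis) for the 21 measured pathway genes, grouped by role from top to bottom; red marks genes called higher, blue genes called lower and grey genes that did not pass. All eIF2 kinases shown are to the right of 0, while ATF4 and its targets lie on both sides.

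The genes whose profiles over the 8 clones were most like those of the 6 genes were found by the root mean square distance between log2 profiles centred on each gene's mean. For RWDD4 they were TOP2A (0.275) and NDC80 (0.382), and for IMPACT MALT1 (0.097) and KIF5B (0.110). For EIF2AK4 they were CRBN (0.054) and TRIT1 (0.064), for RWDD1 RPF2 (0.083) and COPS4 (0.097), and for RWDD2B STK38L (0.171) and ZBTB21 (0.189). For GCN1, whose profile was nearly flat, they were MYOZ2 (0.038) and MCMDC2 (0.041). Those 2 genes averaged 3.28 and 3.44 in the RWDD4 clones and 3.33 and 3.44 in the control clones, under the median of all probe sets on every array. Within the 6 genes, RWDD1 and EIF2AK4 were closest to each other, at 0.215, while RWDD4 was closest to IMPACT, at 0.475. Profiles were centred over all 8 clones, so genes with like group differences lie close, and these distances in part restate those differences. The group difference was 2.94 for RWDD4, 2.91 for TOP2A and 2.23 for IMPACT, and 1.42 for RWDD1 and 1.32 for EIF2AK4. None of the 6 genes was among the 2 nearest to another of them.

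The 5 genes called higher passed in each of 18 other fits, most of which changed the scaling, the variance model, the genes tested or the clones included. The 18 also held the fit with the span trend removed. Another of them, chosen after seeing the data, had a covariate centred within each group, which cannot move the differences. Across these, the difference ran from 1.90 to 2.45 for IMPACT, 1.29 to 1.5 for RWDD1, 1.06 to 1.44 for EIF2AK4 and 1.17 to 1.45 for RWDD2B. In 1 further fit, which took as a covariate where each array lies along the axis described above for control clone 2, none of the 6 genes passed limma's adjusted threshold and 3 had an unadjusted p under 0.05. The differences there were 1.88 for RWDD4 (adjusted p = 0.159), 1.47 for RWDD2B (0.179), 1.19 for RWDD1 (0.185), 0.46 for EIF2AK4 (0.452), 0.42 for IMPACT (0.449) and -0.37 for GCN1 (0.394). The groups did not overlap in that position, so in these 8 arrays the axis and the group cannot be told apart.

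**Figure D5:**
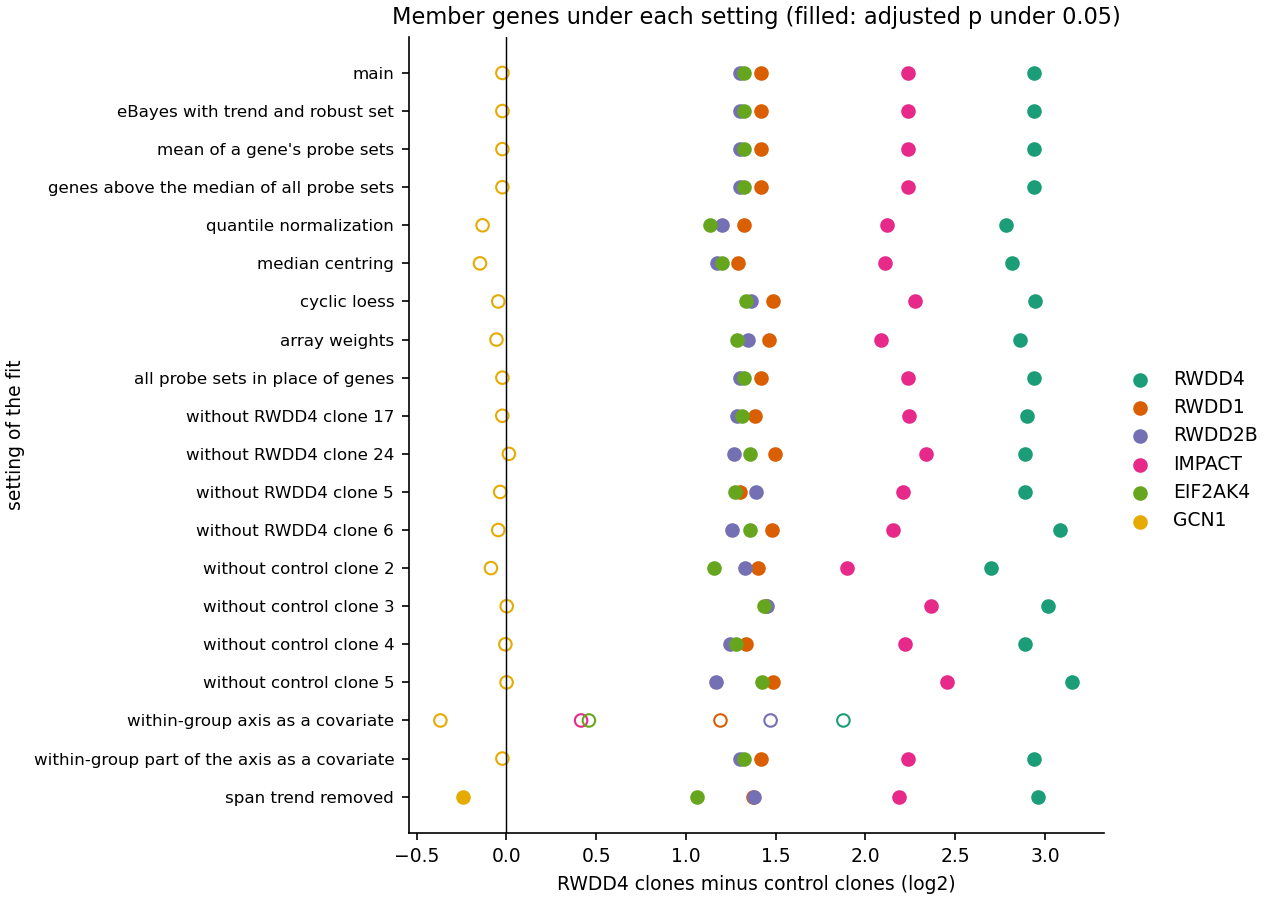
Log2 difference, RWDD4 clones minus control clones (horizontal axis), of the 6 genes under each setting of the fit (vertical axis, the reported fit on top), filled where the adjusted p was under 0.05 and open where it was not. All symbols are open in the row of the axis covariate, where IMPACT and EIF2AK4 are at 0.42 and 0.46, and GCN1 is filled in the row with the span trend removed.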

How the data were processed

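The authors deposited 1 log2 value per array for each probe set, made with Partek and RMA, per the submitters' processing notes, which give neither version nor settings. RMA corrects background, normalizes arrays to each other and summarises probes, and compresses small changes near background. Scan dates are not given in the sources used. No 2 arrays were identical, and the number of arrays limits the precision.

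Of 53617 probe sets, 16098 had 1 gene symbol, none had several and 37519 were unlisted. They stood for 14884 genes, all found by gene ID in a RefSeq table (GRCh38.p14) that gave current symbols. The probe set with the highest mean represented a gene. RWDD4 and control clones were compared with lmFit and eBayes of limma 3.58.1 (R 4.3.3), two-sided, without covariates, with Benjamini-Hochberg adjustment over 14884 genes and a threshold of 0.05, a step tested on simulated data. Errors are SDs over clones or SEs of the fit.

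The genes and lists were chosen with earlier results of these data known. Named were the 6 genes, measured pathway genes, the 2 most similar profiles per gene, leaving out LOC, LINC, MIR, SNOR and orf symbols, and the nearest 2 measured genes on each side.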

Additional observations from a re-analysis of the deposited data

Results flagged for a closer look

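Within each group of 4 clones, the highest or lowest clone was checked for its distance from the others, by Dixon's ratio of the gap to the group's whole range, for the 6 genes. Of 12 gene and group pairs, 2 passed its 95% critical value, where chance flags about 1 in 20 groups. RWDD4 in RWDD4 clone 6 lay at 9.87, below the other RWDD4 clones at 10.42 to 10.46 (ratio 0.936), and without it the difference of RWDD4 was 3.08. GCN1 in control clone 2 lay at 9.99, below the other control clones at 10.24 to 10.26 (ratio 0.914), and without it the difference of GCN1 was -0.09 (limma adjusted p = 0.455).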

How the results depend on the processing

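The count of 5 higher genes among the 6 held in 18 of 19 alternative fits, and the fit with the span trend removed added GCN1 as lower, for 6 calls. With the position along the within-group axis as a covariate, limma called 0 of the 6 genes and 0 of the 21 pathway genes, with 3 and 2 at an unadjusted p under 0.05, and 1 of all genes, with 1910 at an unadjusted p under 0.05, and RWDD4 was at 1.88. With only the within-group part of that position as a covariate, a fit chosen after seeing the data, the same 5 genes passed. That part is centred within each group, so this covariate cannot move a difference and changes only its error. Testing all probe sets gave 14153 calls among 53617, against 6955 among 14884 genes. Centring each array on its median moved the median of all genes to -0.21 from -0.08 and turned the split of all calls to 3307 higher and 5765 lower, against 3741 and 3214. Cyclic loess gave 3980 higher and 2200 lower. Leaving out 1 clone at a time gave 5 of the 6 genes each time, 16 to 18 pathway genes, 5630 to 6768 of all genes and an RWDD4 difference of 2.70 to 3.15. No paired analysis was possible because the labels give no pairing of clones between the groups. The number 5 occurs in both groups but names different clones. Signal over background was not analysed here.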

Other observations

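The nearest 2 measured genes on each side of each of the 6 genes, 24 in all, were examined as chromosomal neighbours. Of these, 8 rose (33.3%, against 25.1% of all genes), 3 fell (12.5%, against 21.6%) and 13 did not pass. Beside RWDD4 on chromosome 4, TRAPPC11, a subunit of a vesicle tethering complex, rose by 1.80 and CDKN2AIP by 0.89, while STOX2 lay at -0.19. Beside RWDD2B on chromosome 21, LTN1, the ubiquitin ligase that marks nascent chains on stalled ribosomes, rose by 1.89 and the deubiquitinase gene USP16 by 2.12. None of the 4 neighbours of EIF2AK4 passed limma's adjusted threshold or had an unadjusted p under 0.05, with differences of 0.10 to 0.25, against 1.32 for EIF2AK4 itself. Beside GCN1, 3 of 4 neighbours fell, where 21.6% of all genes did, by 0.30 to 0.40, among them BICDL1 by 0.36.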
